A study of Mus musculus with 2 samples.

Results

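Genes of the heat shock response, of the unfolded protein response of the endoplasmic reticulum (ER) and of the response to amino acid shortage were followed in the mouse pituitary at E12.5 (embryonic day). A given list of 41 gene symbols was looked up among the 55401 gene identifiers of the tables, and all 41 were found. The list has 3 branches: 13 heat shock genes of the cytosol and mitochondria, 20 genes of ER folding and ER stress sensing, and 8 amino acid stress genes. One library came from pituitaries lacking the protein kinase Dyrk2 (labelled Dyrk2-KO) and the other from wild-type pituitaries (WT), both prepared from polyA-selected RNA by a stranded protocol. The sources used here do not state how the Dyrk2 allele was made, the strain or the number of embryos in a library.

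The 3 branches answer to different transcription factors. In the heat shock response, unfolded protein in the cytosol frees Hsf1, which binds heat shock elements and raises chaperone transcription. In the unfolded protein response, the ER membrane sensors Ern1, Atf6 and Eif2ak3 detect unfolded protein in the ER, and the factors Xbp1 and Atf6 raise ER chaperones through the ER stress element. Eif2ak3 also phosphorylates a translation initiation factor, as do kinases that sense amino acid shortage. That slows most translation but favours Atf4, which raises amino acid synthesis and transport genes.

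Levels are given in FPKM, fragments counted per kilobase of exon and scaled to library size, as the authors deposited them. The files correspond to 20115763 counted fragments in the Dyrk2-KO library and 20044945 in the WT library. Each genotype has 1 library, so differences have no replicate check and are given with no p-value. The 95% intervals reflect counting error alone, and an interval that leaves out 1 says that these libraries differed beyond it, not that the genotypes do. Genes that reached 1 FPKM in either library were compared. Counts by fold and list medians use the log2 ratio of Dyrk2-KO over WT after 0.5 FPKM was added to both, which understates differences of weak genes, while fold values of single genes are plain ratios.

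Dyrk2 measured 1.93 FPKM in the Dyrk2-KO library and 11.5 FPKM in the WT library. All 9 listed markers of pituitary progenitors passed the filter, with Pitx1, a pouch determinant, at 227 FPKM in Dyrk2-KO and 250.4 FPKM in WT. The libraries also differed in their mix of the sexes, with Xist at 14.8 FPKM in Dyrk2-KO and 75.0 FPKM in WT, and the Y-linked Ddx3y at 14.95 FPKM in Dyrk2-KO and 5.83 FPKM in WT. In bulk RNA, fewer cells of a type and less RNA per cell cannot be told apart.

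Differences among most stress genes were small, as among most genes compared. Of the 41 genes 39 passed the filter, and 33 of them lay between 20% lower and 25% higher, equal distances on the log scale. The exceptions were Phgdh, Asns and Chac1, at least 25% higher in the Dyrk2-KO library, and Hspb1, Hspa1b and Ddit3, at least 20% lower. Across all 14000 genes compared, 11655 lay between these limits, 5.42% were that much higher and 11.3% that much lower. Scaling the Dyrk2-KO library by 1.01 brought Ddit3 just inside the limit. Adding 2 FPKM in place of 0.5 brought Hspa1b to a log2 ratio of -0.18 and Ddit3 to -0.26, inside it as well. It also brought Asns and Chac1 to 0.31, inside the upper limit, so Phgdh alone stayed at least 25% higher. Chac1 passed the filter through the Dyrk2-KO library alone, so its place among the higher genes was partly set by the filter. Past 1.5-fold there was 1 gene each way, Chac1 higher and Hspb1 lower, where 2.06% and 4.56% of all genes were found.

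**Figure D1:**
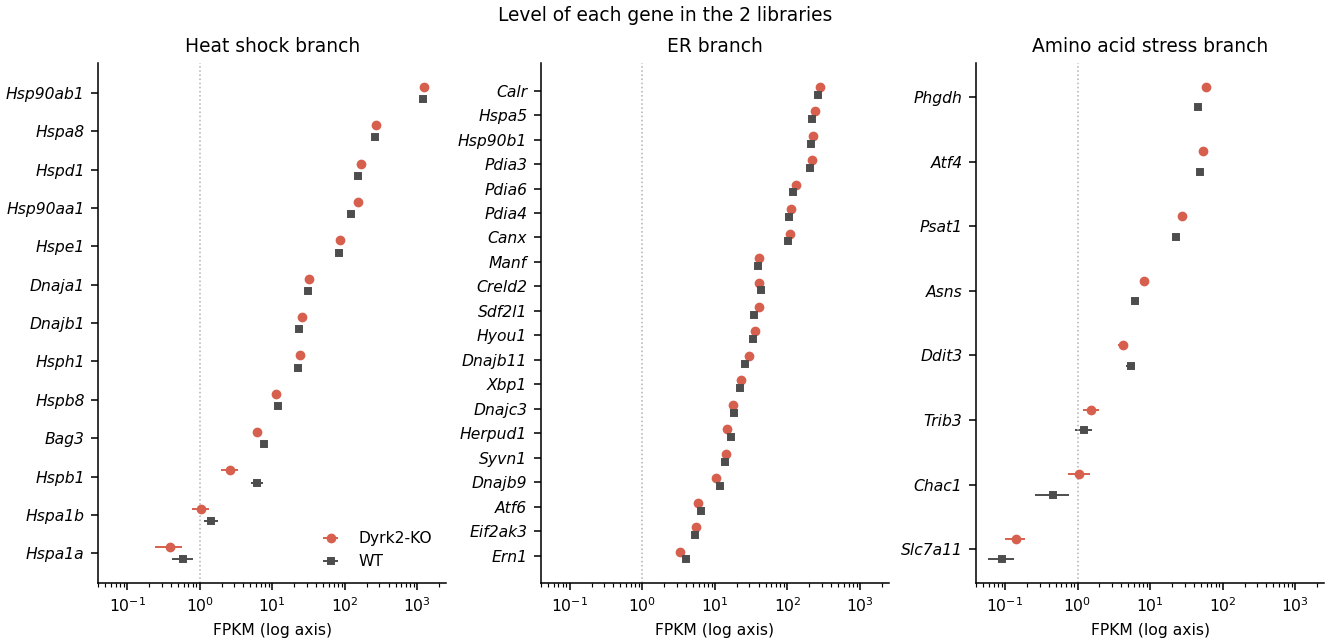
FPKM of the 41 genes on a log axis in the Dyrk2-KO library (circles) and the WT library (squares), by branch, with exact 95% Poisson intervals and a dotted line at 1 FPKM. Levels run from 0.14 FPKM (Slc7a11) to 1235 FPKM (Hsp90ab1) in Dyrk2-KO, and the paired symbols of most genes lie close together.

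The median log2 ratio was 0.28 for the 7 amino acid stress genes that passed, Chac1 among them, 0.08 for the 20 ER genes and 0.06 for the 12 heat shock genes, beside -0.02 for all genes compared. The ER and heat shock medians differed by 0.02, and no difference between branches was tested. As a mean the heat shock branch was at -0.076. Over all listed genes, weak ones included, the log2 ratio was above 0 for 7 of 8 amino acid stress genes, 14 of 20 ER genes and 8 of 13 heat shock genes. Beside these counts, 45.7% of all genes compared and 61.2% of those of at least 20 FPKM were above 0. The counting interval lay above 1 for 22 of the 39 genes and below 1 for 6, where 17.7% and 22.3% of all genes did so.

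Level moved with direction, among these genes and in the whole table. Of the 24 stress genes that averaged at least 20 FPKM, 23 had a log2 ratio above 0, and Creld2 was the exception. Of all 2994 genes of that level, 61.2% had a ratio above 0. The interval lay above 1 for 20 of the 24 and below 1 for none, beside 34.2% and 16.2% of all genes of that level. Of the 17 weaker stress genes, 6 had a ratio above 0, beside 41.5% of the weaker genes compared. The part that this tilt of the whole table plays in the differences between branches was not tested.

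**Figure D2:**
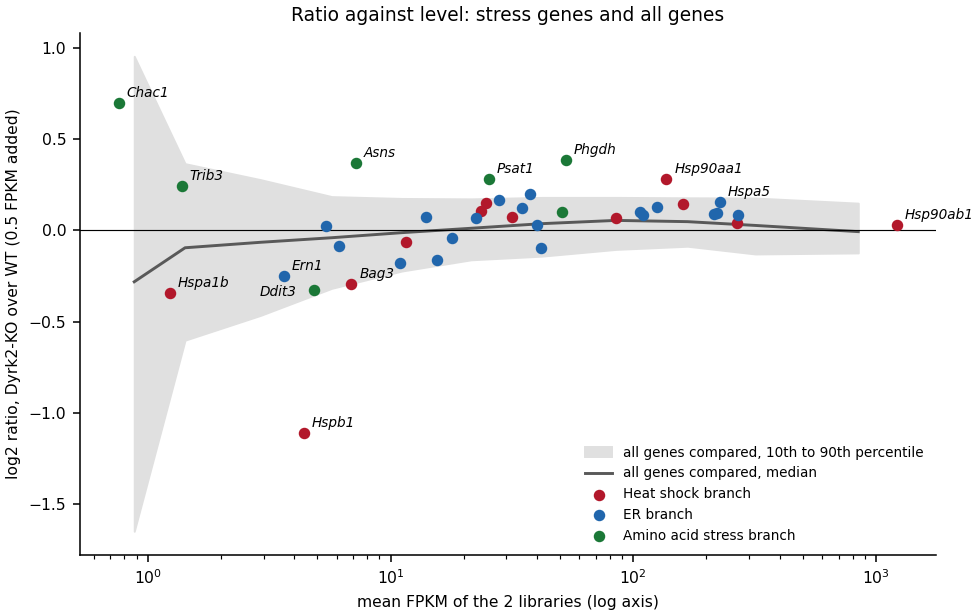
The log2 ratio of Dyrk2-KO over WT (0.5 FPKM added) against mean FPKM on a log axis for the 39 stress genes that passed the filter, coloured by branch. The grey band runs from the 10th to the 90th percentile of all genes compared and the line is their median, in bins of a doubling in level; Hspb1, at -1.11, lies far under the band, Phgdh, Asns, Psat1 and Hsp90aa1 lie above it, and Sdf2l1, at 0.20, and Ddit3, at -0.33, lie at its upper and lower edges.

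Most of the heat shock genes that could be searched carry a pair of heat shock element units close to their starts. A pair of facing units, GAANNTTC or TTCNNGAA, each the same on both strands, was searched in RefSeq windows (build GRCm38.p6) from 250 bases before to 50 after each start. Windows were found for 35 of the 41 genes, the others being Hsp90aa1, Hsp90ab1, Hspa8, Hyou1, Manf and Atf6. The pair stood in 9 of 10 heat shock genes with a window, in 1 of 17 ER genes (Eif2ak3) and in 1 of 8 amino acid stress genes (Asns), beside 17.0% of all 27025 genes with a window. Dnajb1 was the heat shock gene with no match in its windows. A longer array of 3 alternating units stood in 3 of the 10 heat shock genes, Hspd1, Hspe1 and Hsph1. It stood in 0.66% of all genes with a window, and in no ER or amino acid stress gene. A match is a description of letters and not a measured binding site.

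The stretches below are shown because they carry the pair in the inducible Hspa1a and Hspa1b, in Hspb1 and in the region shared by Hspd1 and Hspe1, with the matches in capitals. The Hspa1a stretch, minus strand of chr17:34972216-34972281, is the same at all 66 bases as that of Hspa1b at chr17:34959298-34959363, and the 250 bases before the starts differ at 3 positions. The Hspb1 stretch is on the plus strand of chr5:135887794-135887839. The Hspe1 stretch is on the plus strand of chr1:55088054-55088081.
Hspa1a and Hspa1b: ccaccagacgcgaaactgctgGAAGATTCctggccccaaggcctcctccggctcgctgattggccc
Hspb1: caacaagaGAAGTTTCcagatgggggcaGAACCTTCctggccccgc
Hspe1: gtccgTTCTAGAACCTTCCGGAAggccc
The last of these holds 3 overlapping pairs in 18 bases. The same 18 bases lie before the start of Hspe1 and, on the other strand, before a start of Hspd1, since the genes are transcribed away from each other.

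The most inducible heat shock genes were weakly expressed. Hspa1a and Hspa1b encode the heat-inducible Hsp70, the classic readout of heat shock. Hspa1b measured 1.03 FPKM (95% interval 0.78 to 1.33) in Dyrk2-KO and 1.44 FPKM (1.14 to 1.79) in WT. Hspa1a measured 0.39 FPKM (0.24 to 0.58) in Dyrk2-KO and 0.59 FPKM (0.41 to 0.82) in WT and did not pass the filter. The intervals of their ratios, 0.50 to 1.01 and 0.37 to 1.14, both included 1. These near-identical copies can share reads, so their separate values are uncertain.

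Hspb1, the small heat shock protein Hsp27 that holds unfolding proteins in solution and binds actin, was the furthest from equality. It measured 2.60 FPKM in the Dyrk2-KO library and 6.19 FPKM in the WT library, 2.38-fold lower (95% interval 1.72 to 3.33). Among the 500 genes nearest in mean level 493 had a higher ratio. Bag3, a co-chaperone that links Hsp70 to small heat shock proteins and selective autophagy, measured 6.15 FPKM in Dyrk2-KO and 7.65 FPKM in WT, 1.24-fold lower (1.07 to 1.45). Hspb8, the small heat shock partner of Bag3, was close to level at 11.4 FPKM in Dyrk2-KO and 11.9 FPKM in WT, with an interval of the ratio from 0.84 to 1.09.

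Small heat shock genes are abundant in contractile cells, and markers of those cells mostly differed in the same direction. Of 10 smooth muscle and pericyte markers 9 had log2 ratios below 0, beside 53.7% of all genes compared. Des, at 0.85 FPKM in Dyrk2-KO and 0.54 FPKM in WT, was above 0. The filter left 7 of the 10, with Cspg4 passing through WT alone. The summed level of the 10 was 70.2 FPKM in Dyrk2-KO and 116 FPKM in WT, and Acta2, the smooth muscle actin, measured 1.58 FPKM in Dyrk2-KO and 25.65 FPKM in WT. Notch3, the most expressed of the 10, was level at 48 FPKM in Dyrk2-KO and 48.12 FPKM in WT. The interval of its ratio was 0.97 to 1.03. Of the genes named as further co-chaperones, the small heat shock genes Cryab and Hspb6 were also lower in Dyrk2-KO, at 1.41 and 1.67 FPKM against 2.29 and 2.56 FPKM in WT. None of these markers was at 0 in both libraries. Their part in the lower level of Hspb1 was not tested.

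Of the cytosolic Hsp70 co-chaperones among the 41 genes, 3 were slightly higher in the Dyrk2-KO library, unlike Bag3. Dnajb1, the Hsp40 that feeds substrate to Hsp70, measured 26.1 FPKM in Dyrk2-KO and 23.4 FPKM in WT, a ratio of 1.11 (1.04 to 1.20). Hsph1, an exchange factor that releases nucleotide from Hsp70, measured 24.4 FPKM in Dyrk2-KO and 22.6 FPKM in WT, a ratio of 1.08 (1.03 to 1.13), and so on the opposite side of 1 from Hspa1b. Dnaja1, another Hsp40, measured 32.5 FPKM in Dyrk2-KO and 30.9 FPKM in WT, and overlaps Smu1 on the opposite strand at its end.

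The 4 abundant cytosolic chaperones, Dnaja1 included, summed to 1689 FPKM in Dyrk2-KO and 1628 FPKM in WT, of 2016 and 1936 FPKM for the branch. Hsp90ab1, the constitutive Hsp90, measured 1235 FPKM in the Dyrk2-KO library and 1209.75 FPKM in the WT library, 61.3% and 62.5% of the summed FPKM of the 13 genes. Its ratio was 1.02 (1.01 to 1.03). Hsp90aa1, the more stress-responsive Hsp90, differed more, at 150.45 FPKM in Dyrk2-KO and 123 FPKM in WT, a ratio of 1.22 (1.187 to 1.252), and 13 of the 500 genes nearest in level had a higher one. The intervals of the 2 Hsp90 ratios did not overlap. Hspa8, the constitutive Hsp70, measured 271 FPKM in Dyrk2-KO and 264 FPKM in WT.

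Hspd1 and Hspe1 encode the mitochondrial chaperonin Hsp60 and its Hsp10 lid. Hspd1 measured 168 FPKM in Dyrk2-KO and 152 FPKM in WT, a ratio of 1.10 (1.07 to 1.14). Hspe1 measured 86.6 FPKM in Dyrk2-KO and 82.45 FPKM in WT, a ratio of 1.05 (0.99 to 1.11). Both lay above 1 with overlapping intervals. The annotated genes overlap by 112 bases on opposite strands, and 5 named pseudogenes of Hspd1 summed to 10.7 FPKM in Dyrk2-KO and 8.55 FPKM in WT, so shared reads are possible.

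**Figure D3:**
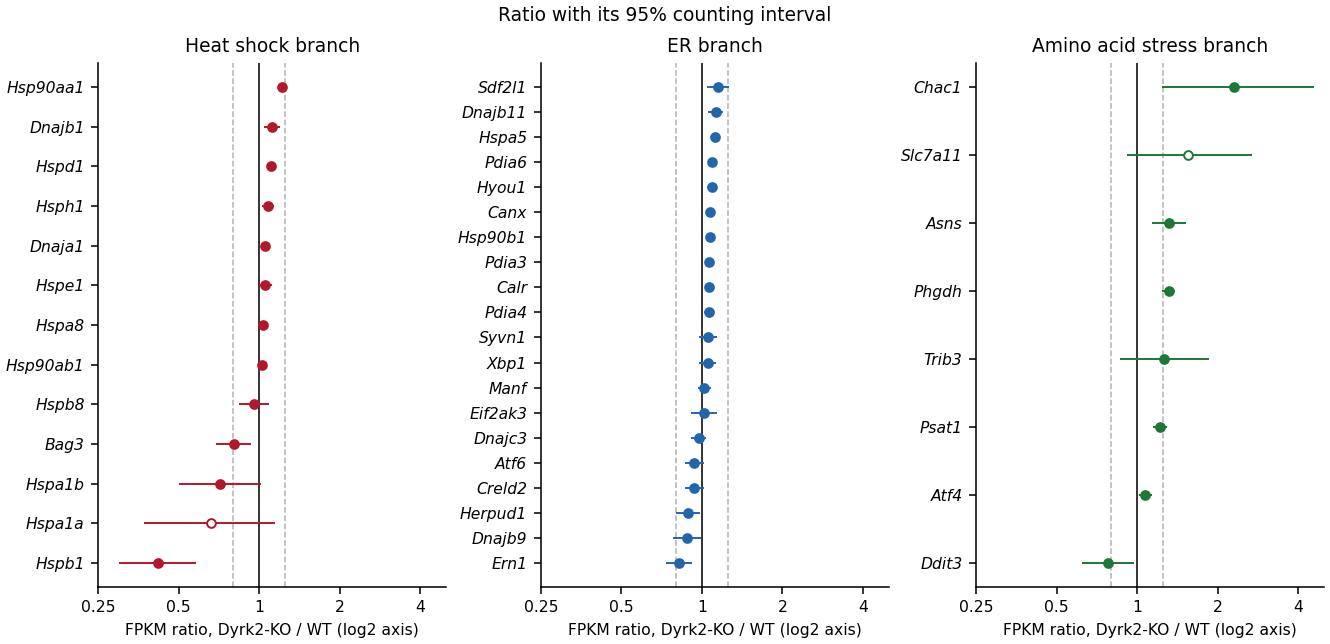
Plain FPKM ratio of Dyrk2-KO over WT on a log2 axis, with its exact 95% counting interval, for the 41 genes by branch in order of ratio. The solid line is 1, dashed lines mark 20% lower and 25% higher, and open circles are the 2 genes below the filter; the ER genes cluster between 0.82 (Ern1) and 1.15 (Sdf2l1), while the other branches spread more widely.

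The ER branch carries a motif of its own. The ER stress element, CCAAT followed after 9 bases by CCACG, was searched on both strands with the 9 bases free. It stood in 8 of the 17 ER genes with a window, in none of the heat shock or amino acid stress genes, and in 37 of all 27025 genes, 0.137%. The 8 genes were Hspa5, Hsp90b1, Calr, Canx, Pdia6, Dnajc3, Creld2 and Syvn1, and no match overlapped a heat shock pair. Hsp90b1 held 2 matches, 1 in each orientation.

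These stretches, all before the start, show the element with its 9 free bases in capitals; it reads in reverse in Calr, in Creld2 and in the second Hsp90b1 match. Hspa5 is at chr2:34772020-34772048 on the plus strand, Hsp90b1 at chr10:86705524-86705664 on the minus strand, Calr at chr8:84847051-84847101 on the minus strand and Canx at chr11:50325788-50325828 on the minus strand. Pdia6 is at chr12:17266449-17266519, Dnajc3 at chr14:118937817-118937857, Creld2 at chr15:88819510-88819548 and Syvn1 at chr19:6046522-6046560, all on the plus strand.
Hspa5: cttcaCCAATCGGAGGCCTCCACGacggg
Hsp90b1: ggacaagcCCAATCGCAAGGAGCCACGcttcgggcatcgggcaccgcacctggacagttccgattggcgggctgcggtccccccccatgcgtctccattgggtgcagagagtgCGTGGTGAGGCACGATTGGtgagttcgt
Calr: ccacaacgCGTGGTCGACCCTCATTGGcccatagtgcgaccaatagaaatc
Canx: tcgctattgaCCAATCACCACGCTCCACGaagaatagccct
Pdia6: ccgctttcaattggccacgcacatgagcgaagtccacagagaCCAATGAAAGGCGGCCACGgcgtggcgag
Dnajc3: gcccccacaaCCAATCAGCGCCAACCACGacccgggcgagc
Creld2: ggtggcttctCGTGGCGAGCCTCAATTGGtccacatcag
Syvn1: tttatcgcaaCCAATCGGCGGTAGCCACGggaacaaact
The median log2 ratio of the 8 genes with the element was 0.09, and that of the 9 ER genes whose window lacks these letters was 0.07. The genes with the element were also more expressed, with a median of 120 FPKM in Dyrk2-KO and 111 FPKM in WT. For the genes without it the medians were 23.1 FPKM in Dyrk2-KO and 22.0 FPKM in WT. The part of level in these ratios was not tested.

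Every ER gene lay between 20% lower and 25% higher, so differences were small. So did 11655 of all 14000 genes compared and 2867 of the 2994 genes of at least 20 FPKM. Of the 14 folding genes 11 had log2 ratios above 0, beside 61.2% of all genes of at least 20 FPKM. The interval lay above 1 for 10, beside 34.2% of those genes, and below 1 for Dnajb9. Hspa5, the ER Hsp70 known as BiP that binds nascent chains and holds the sensors inactive, measured 240.04 FPKM (95% interval 237 to 243) in Dyrk2-KO and 215 FPKM (212 to 218) in WT, a ratio of 1.12 (1.09 to 1.14). Of the 500 genes nearest in level 70 had a higher ratio. Hsp90b1, the ER Hsp90, measured 228 FPKM in Dyrk2-KO and 213 FPKM in WT, a ratio of 1.07 (1.05 to 1.09).

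The lectin chaperones that fold glycoproteins differed by as little. Calr, the soluble lectin, was the most expressed ER gene at 278 FPKM in Dyrk2-KO and 262 FPKM in WT. Canx, its membrane-bound relative, measured 109.99 FPKM in Dyrk2-KO and 102 FPKM in WT, a ratio of 1.07 (1.04 to 1.10). Pdia3, the disulfide isomerase that works with both, measured 221 FPKM in Dyrk2-KO and 207 FPKM in WT. Its ratio of 1.07 matched those of its partners within their intervals. The other disulfide isomerases Pdia4 and Pdia6 measured 113 and 130.3 FPKM in Dyrk2-KO, against 107 and 119 FPKM in WT.

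Among ER co-chaperones the ratios lay on both sides of 1. Sdf2l1, an ER protein that works with BiP and its Hsp40s, had the highest ratio of the branch, 1.15 (1.04 to 1.27), at 40.3 FPKM in Dyrk2-KO and 35.0 FPKM in WT. Dnajb11, an ER Hsp40 for BiP, measured 29.7 FPKM in Dyrk2-KO and 26.4 FPKM in WT, a ratio of 1.13 (1.05 to 1.20), and Hyou1, an exchange factor for BiP, 36.2 FPKM in Dyrk2-KO and 33.2 FPKM in WT, a ratio of 1.09 (1.05 to 1.13). Dnajb9, an ER Hsp40 that recruits BiP to Ern1, was 1.14-fold lower (1.01 to 1.28), at 10.2 FPKM in Dyrk2-KO and 11.6 FPKM in WT. Its direction was thus opposite to that of Dnajb11.

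The intervals of 3 further folding genes included 1. Dnajc3, a co-chaperone also known to inhibit Eif2ak3, measured 17.6 FPKM in Dyrk2-KO and 18.1 FPKM in WT. Creld2, an ER stress-induced protein, measured 40.4 FPKM in Dyrk2-KO and 43.2 FPKM in WT. Manf, a secreted ER stress protein, measured 40.6 FPKM in Dyrk2-KO and 39.7 FPKM in WT, and its annotated span holds Rbm15b on the same strand, so shared reads are possible.

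The 3 membrane sensors were the weakest genes of the branch. Ern1, the sensor that splices Xbp1 mRNA, measured 3.28 FPKM in Dyrk2-KO and 3.99 FPKM in WT, 1.22-fold lower (1.08 to 1.37). Atf6, a sensor released as a transcription factor by proteolysis, measured 5.94 FPKM in Dyrk2-KO and 6.34 FPKM in WT, and Eif2ak3, the sensor kinase PERK, 5.46 FPKM in Dyrk2-KO and 5.36 FPKM in WT. Intervals of the ratio included 1 for both. Xbp1 measured 23.1 FPKM in Dyrk2-KO and 22.01 FPKM in WT, an interval of 0.98 to 1.13, and gene-level values do not separate its spliced from its unspliced form.

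Genes of ER-associated degradation, which sends misfolded proteins back to the cytosol, parted slightly. Herpud1, which organises the degradation complex, measured 14.7 FPKM in Dyrk2-KO and 16.5 FPKM in WT, 1.12-fold lower (1.013 to 1.248). Syvn1, the ubiquitin ligase of that complex, measured 14.4 FPKM in Dyrk2-KO and 13.6 FPKM in WT, with an interval of 0.98 to 1.14. Of the early ER stress targets named here, Herpud1 and Dnajb9 thus lay below 1, while Hspa5 lay above it.

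Markers of hormone and secretory cells, whose ER is rich in cargo, differed far more than the ER genes did. Of 10 listed, 8 had log2 ratios below 0, beside 53.7% of all genes compared. Pcsk1, at 0.40 FPKM in Dyrk2-KO and 2.45 FPKM in WT, passed the filter through WT alone. The summed level of the 10 was 133 FPKM in Dyrk2-KO and 431 FPKM in WT. The summed FPKM of the 20 ER genes was 1603 in Dyrk2-KO and 1501 in WT, a ratio of 1.07. Whether the smaller secretory signal bears on the ER genes was not tested.

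The amino acid stress branch holds the core that Atf4 and its partners bind. The letters TGATGNAA were searched on both strands and stood in 4 of the 8 genes, Asns, Chac1, Trib3 and Slc7a11, and in 1 of 17 ER genes, Herpud1, beside 4.51% of all genes with a window. Stretches of 4 of these genes are shown with the core in capitals, because they compare its position and orientation. Asns is at chr6:7693217-7693245 on the minus strand, Chac1 at chr2:119351037-119351072 on the plus strand, Slc7a11 at chr3:50443643-50443693 on the minus strand and Herpud1 at chr8:94386304-94386334 on the plus strand.
Asns: ggtcccagccacaTGATGAAActtcccgc
Chac1: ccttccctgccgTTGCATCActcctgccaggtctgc
Slc7a11: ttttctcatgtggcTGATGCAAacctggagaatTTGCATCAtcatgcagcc
Herpud1: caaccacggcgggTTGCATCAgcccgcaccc
Slc7a11 holds 2 cores that face each other. In Chac1 and Herpud1 the core reads in reverse, and in Asns it overlaps the heat shock pair found there. Trib3 has its core after the start of transcription.

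**Figure D4:**
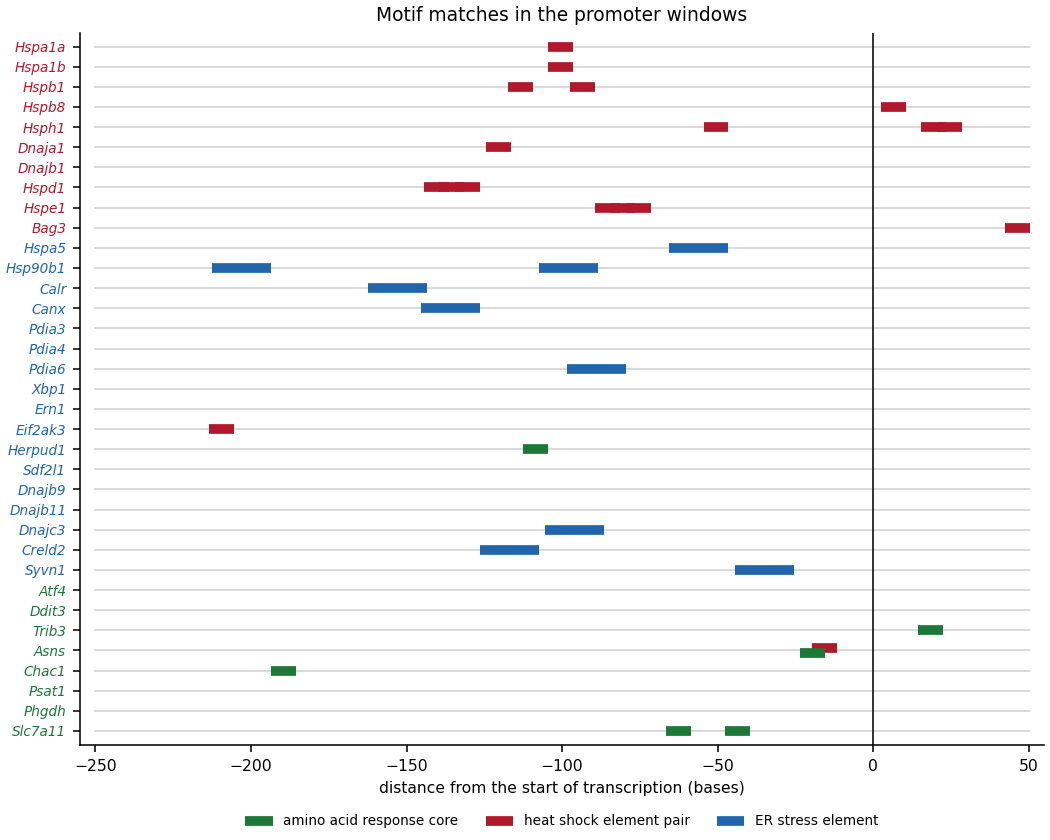
Matches of the 3 motifs in RefSeq windows of 35 stress genes, against the distance in bases from the start of transcription (vertical line); for genes with several windows the one with most matches is drawn, and gene names are coloured by branch. Heat shock pairs lie mostly in the heat shock genes at the top, ER stress elements only in ER genes, and amino acid response cores mainly in the amino acid stress genes at the bottom.

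All 3 amino acid synthesis genes were higher in the Dyrk2-KO library, with intervals above 1. Phgdh, the first enzyme of serine synthesis from glycolysis, measured 59.8 FPKM (95% interval 57.6 to 62.0) in the Dyrk2-KO library and 45.6 FPKM (43.8 to 47.5) in the WT library, a ratio of 1.31 (1.24 to 1.38). Psat1, the next enzyme of that path, measured 27.9 FPKM in Dyrk2-KO and 22.8 FPKM in WT, a ratio of 1.22 (1.15 to 1.30). Asns, asparagine synthetase, measured 8.16 FPKM in Dyrk2-KO and 6.2 FPKM in WT, a ratio of 1.32 (1.14 to 1.52). Their summed FPKM was 95.8 in Dyrk2-KO and 74.65 in WT. Of the 500 genes nearest in level, 7, 16 and 9 had a ratio above that of Phgdh, Psat1 and Asns. Markers of other cells differed beside them. Endothelial markers had log2 ratios above 0 for 7 of 8, with a summed level of 116 FPKM in Dyrk2-KO and 99.03 FPKM in WT. Neuron markers had them above 0 for 6 of 9, but summed to 90.4 FPKM in Dyrk2-KO and 102.9 FPKM in WT. Erythroid markers had them below 0 for 7 of 8, with sums of 1799 FPKM in Dyrk2-KO and 2342 FPKM in WT. Among all genes compared, 45.7% had a log2 ratio above 0 and 53.7% below 0. The part of these markers in the level of the synthesis genes was not tested.

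Atf4, a factor known to raise amino acid synthesis genes, is controlled mainly at translation, which these libraries do not measure. Its part in the levels of Phgdh, Psat1 and Asns was not tested. The Atf4 transcript measured 52.8 FPKM in Dyrk2-KO and 49.2 FPKM in WT, a ratio of 1.07 (1.01 to 1.14), smaller than that of Phgdh. Phgdh was the most expressed gene of the branch in Dyrk2-KO and Atf4 in WT.

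Stress effectors downstream of Atf4 were weakly expressed. Ddit3, which encodes CHOP, a factor of the death-prone phase of ER stress, measured 4.24 FPKM in Dyrk2-KO and 5.45 FPKM in WT, 1.29-fold lower (1.03 to 1.61). It overlaps Mars by 68 bases on the opposite strand, and a second identifier of the same symbol was at 0 in both libraries. Trib3, a pseudokinase induced by CHOP, measured 1.54 FPKM in Dyrk2-KO and 1.22 FPKM in WT, with an interval of the ratio from 0.87 to 1.86. The intervals of the Ddit3 and Trib3 ratios overlapped.

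Genes of glutathione and cystine were the weakest of the branch. Chac1, which degrades glutathione, measured 1.06 FPKM (0.74 to 1.48) in Dyrk2-KO and 0.46 FPKM (0.26 to 0.75) in WT, a ratio of 2.30 (1.24 to 4.58) that rests on 35 and 15 fragments. Slc7a11, the cystine importer, measured 0.14 FPKM in Dyrk2-KO and 0.09 FPKM in WT, with an interval of 0.92 to 2.68, and did not pass the filter.

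Other genes of the same pathways were described from further lists. Aminoacyl-tRNA synthetases, many of them Atf4 targets that charge tRNAs, had log2 ratios above 0 for 17 of 20, beside 45.7% of all genes and 61.2% of those of at least 20 FPKM. The interval lay above 1 for 16 and below 1 for 2, beside 17.7% and 22.3% of all genes. Of genes of at least 20 FPKM, the level of most synthetases, the shares were 34.2% and 16.2%. Gars measured 52.6 FPKM in Dyrk2-KO and 45.4 FPKM in WT, and the list median was 0.15. Of 18 other amino acid synthesis and transport genes 9 were above 0, and the 16 that passed had a median of 0.03. Shmt2, which uses serine in mitochondria, measured 28.85 FPKM in Dyrk2-KO and 29.6 FPKM in WT.

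Kinases and factors of the integrated stress response had log2 ratios above 0 for 11 of 18, beside 45.7% of all genes. The 13 that passed had a median of 0.11, with Stc2, a secreted glycoprotein at 1.23 FPKM in Dyrk2-KO and 0.81 FPKM in WT, passing through Dyrk2-KO alone. Ddit4, an inhibitor of growth signalling that is also induced by hypoxia, measured 64.3 FPKM in Dyrk2-KO and 44.9 FPKM in WT, 1.43-fold higher (1.34 to 1.53). Vldlr, a lipoprotein receptor, was 1.43-fold lower (1.21 to 1.69), at 1.22 FPKM in Dyrk2-KO and 1.74 FPKM in WT. Nfe2l2 and its targets, which include genes of glutathione supply, had a median of 0.08 over 9 genes, with Txnrd1, a thioredoxin reductase, at 36.05 FPKM in Dyrk2-KO and 29.97 FPKM in WT.

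Of 29 further ER oxidoreductases and folding factors 17 had log2 ratios below 0, beside 53.7% of all genes compared and 38.7% of those of at least 20 FPKM. The interval lay below 1 for 9 and above 1 for 2 of the 28 that passed, and their median was -0.04. Of all genes 22.3% and 17.7% did so, and of those of at least 20 FPKM 16.2% and 34.2%. Serpinh1, the collagen chaperone, measured 339 FPKM in Dyrk2-KO and 332 FPKM in WT, P4hb, a disulfide isomerase that also serves collagen hydroxylation, 247 FPKM in Dyrk2-KO and 253 FPKM in WT, and Fkbp7, an ER prolyl isomerase, was 1.42-fold lower (1.17 to 1.74). Of 19 genes of ER-associated degradation 14 had ratios below 0, all by less than 20%. In ER stress signalling the median was -0.10, and Creb3l1, an ER-anchored factor that drives type I collagen in bone cells, was 2.14-fold lower (1.78 to 2.58), at 3.30 FPKM in Dyrk2-KO and 7.07 FPKM in WT.

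Markers of mesenchyme, a tissue rich in collagen-making cells, were mostly lower as well. Of 8 listed, 6 had log2 ratios below 0, beside 53.7% of all genes compared. Lum and Prrx1 were higher, Lum at 24.2 FPKM in Dyrk2-KO and 20.3 FPKM in WT, while Prrx1 passed through Dyrk2-KO alone. The summed level was 145 FPKM in Dyrk2-KO and 217 FPKM in WT, and Col1a1 measured 16.2 FPKM in Dyrk2-KO and 42.7 FPKM in WT. None of the 8 was at 0. Their part in the lower level of Creb3l1 and Fkbp7 was not tested. The translocon and signal peptidase genes, which pass proteins into the ER, had a median of 0.03.

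The 14 subunits of TRiC and prefoldin, which fold actin and tubulin, had a median of 0.09 and 12 ratios above 0. Of 31 Hsf factors and cytosolic co-chaperones 19 had ratios above 0. Beside these counts, 45.7% of all genes and 61.2% of those of at least 20 FPKM were above 0. The 30 co-chaperone list genes that passed had a median of 0.03, with the interval above 1 for 12 and below 1 for 5. Of all genes 17.7% and 22.3% did so, and of those of at least 20 FPKM 34.2% and 16.2%. The list includes the Hsp90 co-chaperones Fkbp4 at 213 FPKM in Dyrk2-KO and 188 FPKM in WT and Stip1 at 141 FPKM in Dyrk2-KO and 127.8 FPKM in WT. Mitochondrial chaperones and proteases had a median of 0.00. Immediate early genes, which respond within minutes to many stimuli, had log2 ratios below 0 for 7 of 11 and above it for 4, Fos among these but under the filter. Of all genes compared 53.7% were below 0. Nr4a1 was 1.55-fold higher (1.21 to 2.01), at 2.3 FPKM in Dyrk2-KO and 1.48 FPKM in WT, and Jun measured 16.4 FPKM in Dyrk2-KO and 19.7 FPKM in WT.

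**Figure D5:**
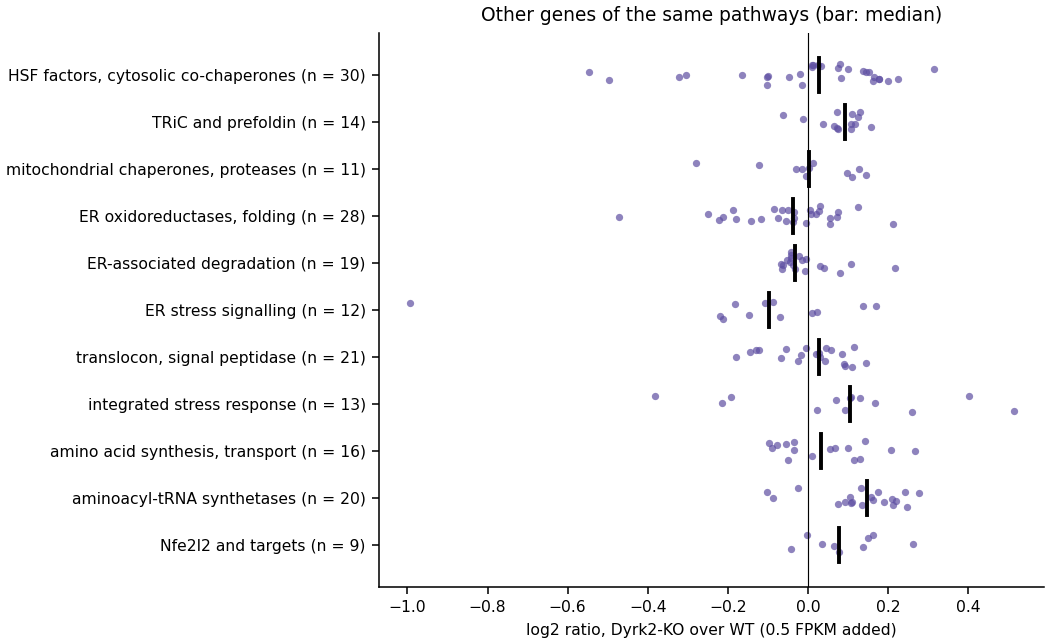
The log2 ratio of Dyrk2-KO over WT (0.5 FPKM added) of each gene that passed the filter in 11 further lists; each point is a gene and each bar the median of the list. Aminoacyl-tRNA synthetases lie mostly to the right of 0 with a median of 0.15, ER stress signalling mostly to the left with a median of -0.10, and Creb3l1 is the point at -0.99.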

How the data were processed

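The authors deposited 1 table per library with a gene identifier, its exon length and its FPKM to 2 decimals, per the file headers. Per the submitters' processing notes, HISAT2 2.0.1, Cutadapt 1.9.1 and the build GRCm38 were used. The counting program, whether it used strand, and the annotation release are not stated there. FPKM were used as deposited, with no count model. FPKM times exon length moves in whole fragments: all 1372 values checked in the Dyrk2-KO library and all 1512 in the WT library (at most 100 fragments, rounding error under 0.05) were whole within 0.1 fragment. The recovered fragments gave exact Poisson intervals of levels and Clopper-Pearson intervals of ratios. Symbols came from GENCODE M21, which matched 55141 of 55401 identifiers; of identifiers that share a symbol, the one with the higher mean stood for it. Depth recovery, ratios and intervals were tested on simulated data. The 41 members and the further lists were chosen with earlier results of these data known. All 41 members were named. Of each further list the named genes are among its 2 most expressed and up to 3 with the largest ratio at least 25% higher or 20% lower. Genes named as overlapping a member, Xist and Ddx3y lie outside that rule. Des, Cspg4, Pcsk1 and Fos do so too, named after their values were seen because of how the filter treats them. Lum was also named after its values were seen, as a mesenchyme marker with a ratio above 0. Promoter windows are from RefSeq. Python 3.11.15, numpy 2.4.6, scipy 1.17.1, pandas 2.3.3 and matplotlib 3.10.9 were used.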

Additional observations from a re-analysis of the deposited data

How the results depend on the processing

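Pseudocounts of 0.1 and 2 FPKM, a filter of 5 FPKM or none, a trimmed-mean or an upper-quartile scaling, and changes in how the branches were summarised were tried. Of 28 recomputed branch medians 27 kept their sign. The heat shock branch taken as a mean was at -0.076, on the other side of 0; the cause was not tested. The scalings multiplied the Dyrk2-KO library by 1.01 and turned the sign of none of the 41 genes. With a pseudocount of 2 FPKM, 1 heat shock gene was at least 20% lower, Hspa1b being the one lost. Among amino acid stress genes 1 was then at least 25% higher, Phgdh, with Asns and Chac1 lost. Of that branch 0 were at least 20% lower and 0 at least 1.5-fold higher. With a filter of 5 FPKM, which tests fewer genes, 1 heat shock gene was at least 20% lower and 0 amino acid stress genes were 1.5-fold higher. Under either scaling 0 amino acid stress genes were at least 20% lower, Ddit3, at a log2 ratio of -0.33, being the gene concerned. No paired analysis was possible because each genotype has 1 library. Depth limits the weakest genes, Hspa1a, Hspa1b, Trib3, Chac1 and Slc7a11.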
